A study of Mus musculus with 12 samples.

Results

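The tripartite motif (TRIM) genes were followed across 4 culture conditions of RAW264.7, a transformed macrophage-like line from the mouse, with and without added NaCl and lipopolysaccharide (LPS, a bacterial outer membrane component sensed through the receptor TLR4). Genes were taken as members when a non-control probe carried a name starting with Trim and a digit and the scanner software marked it well above background on every one of the 3 arrays in some group. Of 67 such genes on the array, 42 met this rule, among 13859 named genes that met the same filter. The rule used brightness only and tested no difference between groups, although a gene can pass it through some groups only. Culture lasted 24 h in all groups, and per the labels the added NaCl was 40 mM and the LPS dose 10 ng/ml. There are 3 arrays for each of the groups labelled NS (neither), HS, NS+LPS and HS+LPS. The labels do not spell out these abbreviations, and HS was read as the groups with added NaCl and NS as those without. All 12 arrays carry the same cell line, so every comparison is within this line and not in primary macrophages.

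Since no label states whether replicates came from separate cultures, the p-values reflect the spread between the arrays given, and that spread may be technical. Expression values are scaled intensities, the processed signal as a percentage of the 75th percentile of that array's non-control spots. Each gene is shown by its brightest passing probe, by mean log2 signal over all arrays. That choice can favour a probe that is high in some groups. Levels of different probes are not set against each other. Differences are on the log2 scale with the standard error (SE) from a limma fit over all 13859 genes. The threshold for a call was an adjusted p under 0.05, and only called genes are said to have risen or fallen. Of 3 slides, the first held all arrays without LPS together with NS+LPS replicates 1 and 2, the second held NS+LPS replicate 3, and the last, scanned on a later day, held only the HS+LPS arrays. In every comparison with HS+LPS, the group therefore cannot be told apart from its slide and scan day. The 75th percentile was 411 to 438 intensity units in HS+LPS and 613 to 783 in the other groups. Between 44.6% and 53.3% of spots were well above background. Replicates correlated at 0.996 to 0.9986 across genes. Of the macrophage markers, 8 of 8 on the array were measured, with a summed scaled intensity of 81400 to 91600 in the 3 groups other than HS+LPS and 103000 to 108000 in HS+LPS. Single macrophage markers went both ways under this sum. Their log2 differences ran from -0.48 to 2.06 in NS+LPS against NS and from -1.42 to 0.6 in HS+LPS against NS+LPS. Of 20 markers of T cells, B cells, fibroblasts, epithelium, endothelium, neutrophils, mast cells and dendritic cells on the array, 5 met the filter (Cd3e, Cd79a, Dcn, Kdr and S100a8). The defining markers Cd3d, Col1a1, Epcam, Cdh5, Ly6g, Cpa3 and Flt3 did not. The T cell marker Cd3e lay at 97.9 to 151 over all groups and the endothelial marker Kdr at 244 to 330. Cd79a lay at 5.97 to 12.4 and Dcn at 1.01 to 26.4. S100a8, a neutrophil marker, was at 4.63 to 8.56 without LPS, 85.7 to 97.7 in NS+LPS and 39.1 to 51.0 in HS+LPS. The part of these markers in the TRIM results was not tested.

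Most TRIM proteins have a RING domain that gives ubiquitin ligase activity, B-boxes and a coiled coil, followed by a variable C-terminal part that often binds the target. A few, such as Trim14, Trim16 and Trim44, lack the RING. In macrophages several members restrict viruses or tune signalling from Toll-like receptors and RNA and DNA sensors. LPS acts through TLR4 on NF-kB and, by way of the adaptor Ticam1 (TRIF), on interferon-beta, and interferon in turn induces a subset of TRIM genes through the ISGF3 complex, which binds the interferon-stimulated response element (ISRE) in their promoters. Among the 42 genes, 15 were grouped under innate immune signalling, 6 under the interferon-responsive Trim5, Trim12, Trim30 and Trim34 cluster of chromosome 7, 3 under chromatin corepressors, 3 under NHL repeat proteins, 4 under cytoskeletal or COS-box proteins and 11 under other roles.

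Promoter stretches of 4 genes that rose with LPS are shown first. They were chosen because each holds, before the start, letters that the rule for members did not use. The ISRE core was searched on both strands as a pair of GAAA letters with any 2 bases between them, from 250 bases before to 50 bases after each RefSeq start (build GRCm38.p6). It was found in 1131 of 32851 promoters (3.44%). RefSeq promoters were matched to 31 of the 42 genes, with 44 start sites, and 8 of these (18.2%) held the core. They belonged to Trim2, Trim12c, Trim21, Trim26, Trim30a, Trim30d and Trim34a. A kappaB element of NF-kB, searched as GGGA, any base and TTTCC, was in 0.411% of all promoters and in 0 of the 44. The stretches below run 5′ to 3′ on the gene's strand, with matches in capitals, read on the opposite strand. The first 3 are the 100 bases before a start on chromosome 7, minus strand, at chr7:104353350-104353449 (Trim12c), chr7:104465194-104465293 (Trim30a, 1 of its 2 starts with a match) and chr7:104507850-104507949 (Trim30d). The last, chr17:36836946-36837045 on the plus strand, ends 100 bases before the Trim26 start and holds 2 matches that overlap.
Trim12c: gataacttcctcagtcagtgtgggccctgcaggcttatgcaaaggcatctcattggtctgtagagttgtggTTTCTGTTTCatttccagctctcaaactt
Trim30a: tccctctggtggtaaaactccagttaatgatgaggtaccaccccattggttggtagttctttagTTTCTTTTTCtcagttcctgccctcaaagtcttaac
Trim30d: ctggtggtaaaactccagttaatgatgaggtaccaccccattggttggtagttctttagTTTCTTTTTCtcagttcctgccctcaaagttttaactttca
Trim26: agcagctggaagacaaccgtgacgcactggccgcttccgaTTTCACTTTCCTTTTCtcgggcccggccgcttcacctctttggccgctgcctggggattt
Shifted by 5 bases, the Trim30a and Trim30d stretches were identical at 94 of 95 bases, while Trim12c and Trim30a shared no run longer than 7 bases. A match is a description of letters, not a binding site.

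Because the cluster genes are close paralogs, the probes that report them are also shown, as the first 30 of their 60 bases.
Trim12c: taatctacatgtggccaacatagtagagag
Trim30a: catattgcttctagcagatagaaggtatca
Trim30c: ccaatgacagtatgtgggccatcctcatca
Trim30d: atgtaacgtttcagcctaaatgtggctact
Trim34a: cttggagaactgactcaccattgttttaga
Trim34b: aagaaactgagcatggtattccaagctcct
On mm9 the probes lie on chromosome 7 at 111496596 to 111496655 (Trim12c), 111557578 to 111557637 (Trim30a), 111530579 to 111530638 (Trim30c), 111620805 to 111620864 (Trim30d), 111396137 to 111396196 (Trim34a) and 111483842 to 111483901 (Trim34b). Across the 15 pairs of whole probes, the longest shared run was 5 to 8 bases. Hybridization of a probe to another paralog's RNA was not tested.

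With LPS, 5 of the 6 cluster genes rose in both media by a median of 3.43 without and 4.54 with added NaCl (4.19 with Trim34b, below background in HS, at its bound), beside 28.6% and 30.5% of all genes called higher. The remaining one, Trim30c, was called higher too, but met the brightness filter only through the groups with LPS, so its direction was set by the filter. Trim30a, which in mice restrains TLR signalling to NF-kB, had scaled intensities of 49.9, 53.3 and 53.9 on the NS arrays and 1250, 1160 and 1190 on the NS+LPS arrays. On the HS arrays it lay at 27.8, 27.5 and 26.5, and on the HS+LPS arrays at 801, 885 and 830. No array with LPS overlapped one without. The rise was 22.9-fold without added NaCl (log2 4.52 ± 0.051 SE, adjusted p = 9.47e-13) and 30.8-fold with it (4.94 ± 0.051, adjusted p = 4.7e-13). Trim30d, its neighbour with the near-identical promoter stretch, was at 31.6, 22.6 and 26.8 in NS, 14.3, 13.8 and 13.2 in HS, 743, 689 and 731 in NS+LPS, and 480, 524 and 463 in HS+LPS. Again the arrays with and without LPS were far apart, and Trim30d rose 26.9-fold (4.75 ± 0.1, adjusted p = 7.14e-11) and 35.4-fold (5.15 ± 0.1, adjusted p = 3.75e-11).

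Trim12c, a mouse relative of the primate retroviral restriction factor TRIM5, was at 21.2, 22.6 and 20.8 in NS and 228, 211 and 219 in NS+LPS. With added NaCl it was at 15.6, 14.5 and 15.1 without LPS and 139, 160 and 154 with LPS. The groups with LPS lay above those without, a rise of 10.2-fold (3.35 ± 0.061, adjusted p = 1.91e-11) and 10.0-fold (3.32 ± 0.061, adjusted p = 1.93e-11). Both other Trim12c probes that passed also rose with LPS, by 2.23 and 1.83 without added NaCl, less than the probe used. The arrays with LPS took part in the choice of that probe. Trim34a, whose human counterpart TRIM34 is interferon-induced, was at 6.22, 7.68 and 6.97 in NS, 8.06, 6.54 and 6.47 in HS, 39.1, 41.1 and 41.6 in NS+LPS, and 29.9, 34.2 and 33.6 in HS+LPS. It was the cluster gene with the smallest differences, 5.85-fold (2.55 ± 0.1) and 4.66-fold (2.22 ± 0.1).

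For Trim30c and Trim34b, a group lay below background on every array, so folds against it are bounds. They are set against the lowest signal among probes well above background on that array, or the probe's own signal where higher. Here and below, a bound holds for that floor only and is not the probe's own detection limit. The adjusted p beside a bound tests the fitted difference, not the bound. Trim30c was at 3.39, 1.35 and 1.43 in NS and 1.36, 1.12 and 3.11 in HS, well above background on no array. With LPS it was at 58.3, 63.2 and 61.6 without and 17.4, 15.8 and 14.9 with added NaCl, at least 15.4-fold (adjusted p = 1.33e-06) and at least 3.45-fold higher (adjusted p = 3.23e-05). Trim34b was at 8.93, 9.99 and 10.4 in NS and at 5.74, 2.79 and 4.09 in HS, where no array was well above background. It reached a geometric mean of 105 in NS+LPS, with 102 on the lowest array, and 88.6, 100 and 92.1 in HS+LPS. That is a rise of 10.8-fold without added NaCl (3.43 ± 0.2, adjusted p = 1.21e-07) and of at least 18.3-fold with it (adjusted p = 1.38e-08). With normexp background correction, another way to treat dim spots, the differences of the dimmer cluster genes were smaller and the calls held. They were 2.61 and 1.22 for Trim30c, 1.6 and 1.39 for Trim34a, and 2.6 with added NaCl for Trim34b. Those of Trim30c and Trim34b are below the bounds just given.

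**Figure D1:**
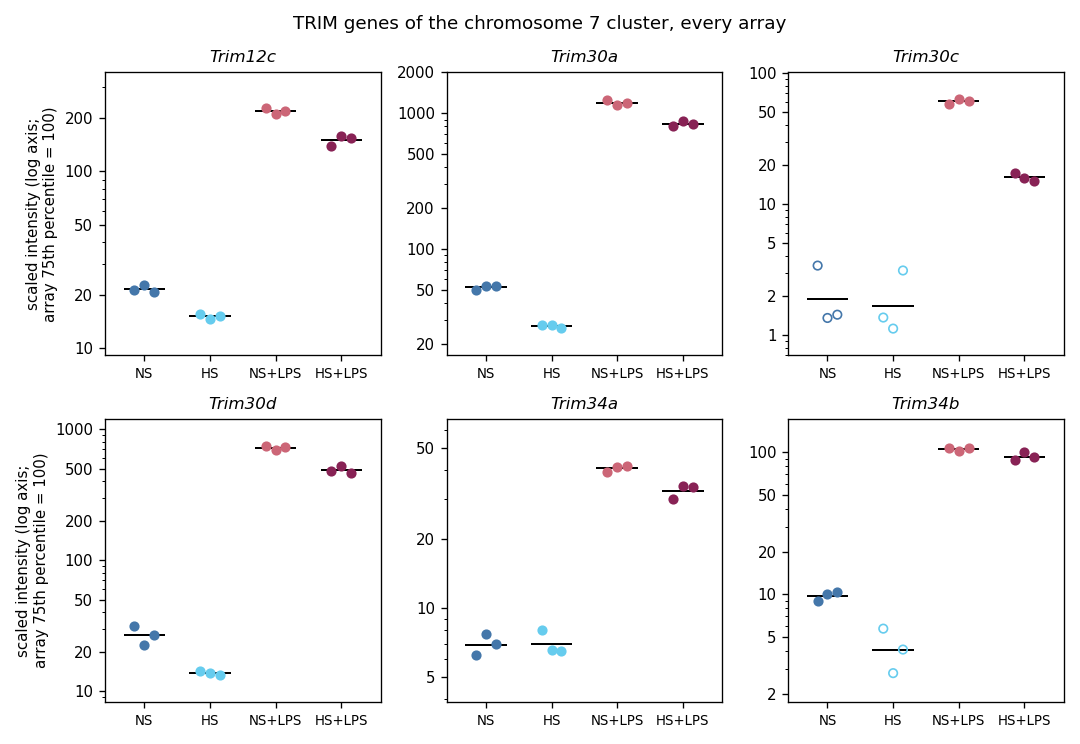
Scaled intensity (log axis, array 75th percentile set to 100) of the 6 chromosome 7 cluster genes on each of the 12 arrays by group. Points are arrays, open where no array of the group was well above background, and lines are geometric means. In every panel the 6 arrays with LPS lie above the 6 without, as for Trim30a, with 26.5 to 53.9 without LPS and 801 to 1250 with it.

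Of the innate signalling genes, 6 of 15 rose and 5 fell with LPS without added NaCl, beside 28.6% of all genes called higher and 35.1% called lower. With added NaCl 7 rose and 6 fell, beside 30.5% and 41.8%. Trim21, a cytosolic receptor for antibody that marks coated viruses for degradation, was at 46.5, 42.7 and 40.1 in NS, 30.5, 37.1 and 29.9 in HS, 144, 147 and 144 in NS+LPS, and 96.5, 96.2 and 95.7 in HS+LPS. It rose 3.37-fold (1.75 ± 0.08, adjusted p = 1.82e-08) and 2.97-fold (1.57 ± 0.08, adjusted p = 3.98e-08), with no overlap between arrays with and without LPS. Its RefSeq promoter holds 2 ISRE-core matches, both after the start.

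Trim25, which ubiquitinates the RNA sensor RIG-I, was at 9350, 9560 and 9240 in NS and 14500, 15500 and 15100 in NS+LPS. It was at 9230, 9260 and 9770 in HS and 18500, 17100 and 17500 in HS+LPS. By this probe it rose 1.6-fold (0.68 ± 0.045, adjusted p = 3.06e-07) and 1.88-fold (0.91 ± 0.045, adjusted p = 2.88e-08). The second Trim25 probe did not show this difference, with geometric means of 2950 in NS and 3000 in NS+LPS (0.02, adjusted p = 0.736) and 0.08 with added NaCl (adjusted p = 0.254). The Trim25 rise therefore rests on 1 of its 2 probes. Trim26, which acts on nuclear IRF3, rose by 0.78 and 0.91, and Trim14, a signalling adaptor at mitochondria, by 0.67 and 0.84. Trim13, an endoplasmic reticulum ligase, rose by 0.7 and 0.55.

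Trim23, which carries an ADP-ribosylation factor domain, rose by 0.36 without and 0.8 with added NaCl. The first of these calls ended on leaving out NS replicate 1, NS replicate 3 or NS+LPS replicate 2, with values of 0.28 to 0.34 and adjusted p values of 0.0512 to 0.071. On the slide shared by NS and NS+LPS alone, Trim23 was 0.35 higher at an adjusted p of 0.0675.

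Outside these groups, Trim16, a RING-less protein that takes part in autophagy of damaged membranes, was at 43.8, 47.3 and 47.1 in NS and 92.5, 97.8 and 98.9 in NS+LPS. By this probe it rose 2.09-fold (1.07 ± 0.068) without and 2.51-fold (1.32 ± 0.068) with added NaCl, and by its second probe 0.24 and 0.58. Trim46, known for bundling microtubules at the start of the axon, rose by 0.84 and 0.76. Trim69, a microtubule-associated ligase, met the brightness filter only through the groups with LPS, so its direction was set by the filter. It was dim without LPS at 4.62 to 8.93 and lay at 24.4 to 26.9 in NS+LPS and at 16.8, 41.2 and 16.0 in HS+LPS. The differences were 2.34 ± 0.32 and 1.63 ± 0.32, with a wide spread in HS+LPS, and with normexp 1.24 and 0.99. Trim9, a neuronal ligase, rose by 0.62 without added NaCl and was 0.05 higher with it (adjusted p = 0.775).

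All 3 chromatin corepressors fell with LPS in both media, beside 35.1% of all genes called lower without and 41.8% with added NaCl. Trim28 (KAP1), the corepressor of KRAB zinc finger proteins, was at 3470, 3500 and 3530 in NS and 2210, 2220 and 2280 in NS+LPS. In HS it was at 4430, 4020 and 4130 and in HS+LPS at 2390, 2390 and 2450. It fell 1.57-fold and 1.74-fold (-0.65 ± 0.041, adjusted p = 2.32e-07, and -0.8 ± 0.041, adjusted p = 4.22e-08), and no array with LPS reached one without. Trim33 (TIF1-gamma), which binds SMAD proteins, was at 61.3 to 69.6 in NS, 55.5 to 67.9 in HS, 25.9 to 33.1 in NS+LPS, and 24.4 to 26.7 in HS+LPS. Trim33 fell by 1.17 ± 0.1 and by 1.25 ± 0.1. Trim24 (TIF1-alpha), a nuclear receptor cofactor, fell least, by 0.16 ± 0.034 and by 0.38 ± 0.034, from 321 to 326 in NS and 326 to 335 in HS to 281 to 299 in NS+LPS and 252 to 255 in HS+LPS. The Trim24 calls ended with cyclic loess without added NaCl (-0.08, adjusted p = 0.0698) and with its second probe with added NaCl (-0.16, adjusted p = 0.0777).

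Other members fell as well. Trim37, a ligase of centrosomes and chromatin, was at 174, 168 and 173 in NS and 56.4, 56.5 and 59.2 in NS+LPS. In HS it was at 214, 223 and 226 and in HS+LPS at 59.3, 56.2 and 61.5. Trim37 fell 2.99-fold (-1.58 ± 0.043, adjusted p = 4.27e-10) and 3.74-fold (-1.9 ± 0.043, adjusted p = 1.01e-10), with wide gaps between the arrays with and without LPS. Trim59, a membrane-anchored ligase, was at 1170, 1110 and 1150 in NS, 1030, 1100 and 1080 in HS, 699, 693 and 677 in NS+LPS and 553, 557 and 542 in HS+LPS. The differences were -0.73 ± 0.039 (adjusted p = 6.04e-08) and -0.96 ± 0.039 (adjusted p = 7.39e-09), with no overlap between those arrays. Trim44, which lacks the RING, fell by 0.75 and 0.88, Trim8 by 0.48 and 0.26, Trim11 by 0.5 and 0.36, Trim27 by 0.31 and 0.49, and the NHL repeat ligase Trim32 by 0.37 and 0.28.

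**Figure D2:**
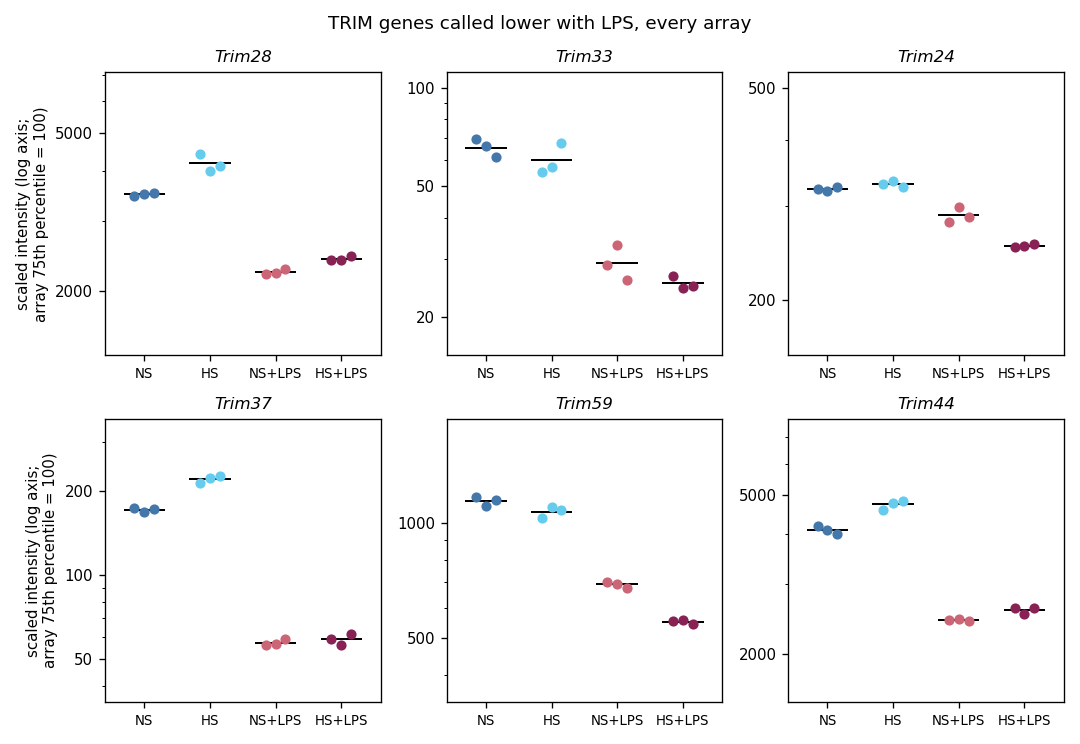
Scaled intensity (log axis, array 75th percentile set to 100) of 6 TRIM genes called lower with LPS in both media, on each of the 12 arrays by group; lines are geometric means. The 3 corepressors Trim28, Trim33 and Trim24 are in the upper row. For Trim37 the 6 arrays without LPS lie between 168 and 226 and the 6 with LPS between 56.2 and 61.5.

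The LPS differences of Trim47 and Trim7 differed between the media by the interaction test given further on. That test includes HS+LPS, so a dependence on the medium cannot be told apart from its slide and scan day. Trim47, a ligase studied mostly in tumours and endothelium, was at 139, 146 and 126 in NS and 53.0, 46.7 and 53.6 in NS+LPS, a fall of 2.68-fold (-1.42 ± 0.11, adjusted p = 1.02e-06). With added NaCl it went from 47.6, 56.8 and 43.1 to 27.3, 31.9 and 27.1, a fall of 1.7-fold (-0.77 ± 0.11, adjusted p = 9.74e-05). Both probes that passed gave the same directions. Trim7, which binds glycogenin, the starter of glycogen synthesis, was at 22.9, 26.2 and 25.3 in NS and 8.75, 7.78 and 8.12 in NS+LPS, and fell 3.01-fold (-1.59 ± 0.078, adjusted p = 3.18e-08). With added NaCl it was at 27.5, 23.7 and 27.3 without LPS and 22.9, 23.0 and 25.5 with it, groups that overlapped and did not pass the test (-0.13 ± 0.078, adjusted p = 0.144). The second Trim7 probe fell by 1.5 without added NaCl and fell by 0.54 with it (adjusted p = 0.0307). With normexp the fall of Trim7 without added NaCl was -0.78 and that of Trim47 with added NaCl -0.47, both still called.

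Trim63 (MuRF1), the muscle atrophy ligase, met the brightness filter only through the groups without LPS, so its direction with LPS was set by the filter. It was at 12, 11.1 and 13.0 in NS and was not well above background with LPS, at 1.42, 1.2 and 0.938 in NS+LPS and at 4.74, 3.28 and 3.83 in HS+LPS. It was at least 2.28-fold lower in NS+LPS than in NS (adjusted p = 3.33e-08). It was at least 1.22-fold lower in HS+LPS than in HS (adjusted p = 0.00108), where the HS arrays were at 6.24, 6.89 and 7.83, and this direction turned with normexp background correction (0.15). Trim36, an acrosomal and microtubule-binding protein, was at 25.0, 22.4 and 24.5 in NS, 12.1, 9.53 and 15.2 in NS+LPS, 13.0, 14.3 and 12.4 in HS, and 5.17, 5.51 and 3.89 in HS+LPS, where it was below background. It fell 1.99-fold without added NaCl (-0.99 ± 0.17, adjusted p = 0.000382) and was at least 2.32-fold lower with it (adjusted p = 1.84e-05). Trim75 also met the filter only through the groups without LPS, so its direction with LPS was likewise set by the filter. Trim75 differed by -0.79 ± 0.16 without added NaCl, from 6.68 to 7.95 in NS to 3.29 to 4.93 in NS+LPS. It was at least 1.31-fold lower in HS+LPS than in HS (adjusted p = 0.00129). With normexp the differences without added NaCl were -0.79 for Trim63, -0.54 for Trim36 and -0.16 for Trim75, and that of Trim36 with it -0.23, all still called.

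Trim17, a ligase linked to neuronal apoptosis that met the filter only through NS, was not called with LPS without added NaCl (-0.04) and was at least 1.23-fold lower with it (adjusted p = 0.00563). Its HS+LPS arrays, at 2.0, 4.76 and 4.08, were below background. Without HS+LPS replicate 1 the difference from HS moved from -1.05 to -0.67. Trim17 and Trim75 both turned direction in this comparison with normexp background correction, at 0.13 and 0.08. Trim65, a ligase for the RNA sensor MDA5, was -0.33 with LPS without added NaCl (adjusted p = 0.121) and fell by 1.0 with it. The latter call ended with normexp (-0.15, adjusted p = 0.141), and with cyclic loess it was -0.65. The second Trim65 probe fell by 1.07 without added NaCl (adjusted p = 0.0124).

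In all, LPS without added NaCl raised 16 and lowered 16 of the 42 TRIM genes, beside 28.6% of all genes tested called higher and 35.1% called lower. With added NaCl 17 rose and 18 fell by the brightest probe, beside 30.5% and 41.8% of all genes. Of these, Trim45 (higher) and Trim39 (lower) had another probe called the other way. Trim30c, Trim69, Trim17, Trim63 and Trim75 met the filter only through groups with LPS or only through groups without it. Their LPS directions in these counts are therefore not independent of the filter. In either direction 76.2% and 83.3% of the 42 were called, beside 63.7% and 72.3% of all genes. The median TRIM difference was 0.0 and 0.02, beside -0.034 and -0.108 over all genes. With cyclic loess normalization the median of all genes in HS+LPS against HS moved up by 0.14, and 54.4% rather than 42.2% of called genes were higher. The 2 LPS comparisons share no arrays. By the brightest probe, 30 of the 42 genes (71.4%) were called in both, 15 higher and 15 lower and 0 in opposite directions, beside 53.5% of all genes called in both. The 15 that rose in both were the 6 cluster genes, Trim13, Trim14, Trim16, Trim21, Trim23, Trim25, Trim26, Trim46 and Trim69. RefSeq promoters were matched to 13 of these 15, of which 6 held the ISRE core, and to 10 of the 15 that fell in both, of which 0 did. Over all 31 matched TRIM genes 7 held it, beside 3.44% of all promoters. Of the 6, Trim12c, Trim30a, Trim30d and Trim34a are paralogs of 1 cluster. Trim2, which also held the core, was not called with LPS in either medium. Whether the core bears on the LPS differences was not tested. The LPS differences in both media correlated at 0.93 across the 42 genes and 0.84 across all genes, which are not independent replicates. Trim30c, Trim69, Trim63 and Trim75, whose direction with LPS was set by the filter, are among the 30 and enter the 0.93.

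**Figure D3:**
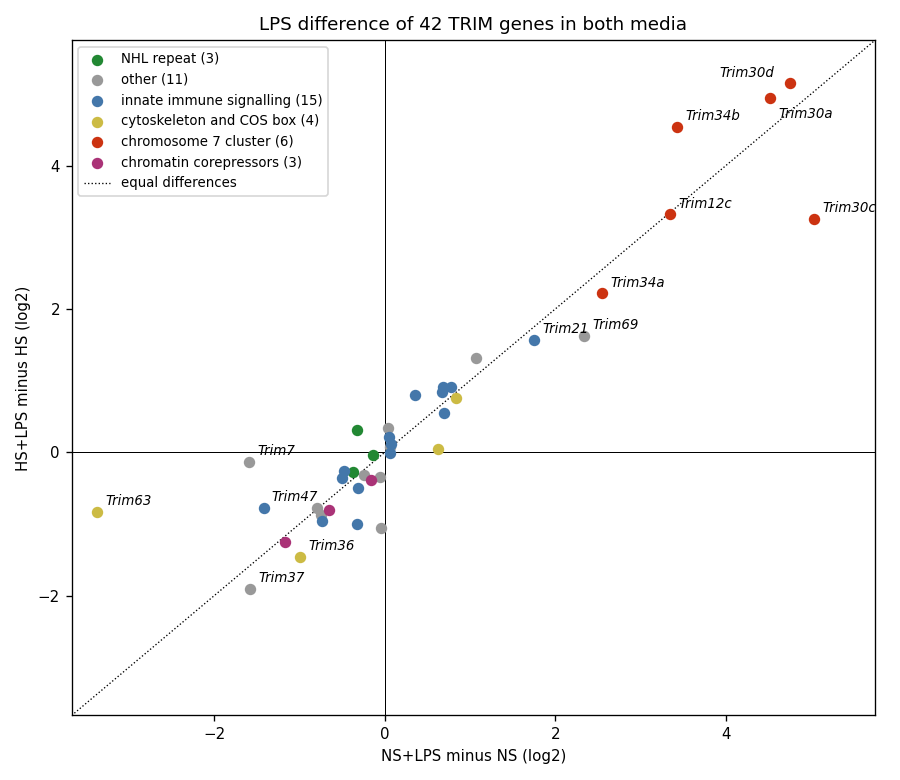
Difference with LPS (log2) without added NaCl (horizontal) and with added NaCl (vertical) for the 42 TRIM genes, coloured by role, with the dotted line marking equal differences. The 6 cluster genes lie at the upper right, from 2.55 to 5.03 without and 2.22 to 5.15 with added NaCl, while Trim7 lies at -1.59 and -0.13. Points of Trim17, Trim30c, Trim34b, Trim36, Trim63 and Trim75 are fitted values that involve groups below background, not bounds.

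Added NaCl without LPS raised 7 of the 42 TRIM genes and lowered 15, beside 18.2% of all genes called higher, 18.8% called lower and 37% called in either direction (52.4% of the 42). The median was -0.04, beside 0.017 over all genes. The NS and HS arrays were on 1 slide. Trim47 fell most among genes above background in both groups, from 126 to 146 in NS to 43.1 to 56.8 in HS, a fall of 2.8-fold (-1.48 ± 0.11, adjusted p = 7.85e-06). Trim2, an NHL repeat ligase known for turnover of neurofilament light chain, was at 24.6, 25.0 and 24.0 in NS and 13.0, 12.5 and 9.37 in HS. It fell 2.14-fold (-1.1 ± 0.17, adjusted p = 0.000742), with no overlap. Trim36 fell 1.81-fold (-0.86 ± 0.17, adjusted p = 0.0028) and Trim63 fell 1.73-fold (-0.79 ± 0.17, adjusted p = 0.00422), both with HS arrays below all NS arrays. With normexp these differences were -0.58 for Trim2, -0.48 for Trim36 and -0.25 for Trim63, all still called.

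Of the cluster genes, 4 of 6 fell with added NaCl without LPS, beside 18.8% of all genes called lower. Trim30a fell 1.92-fold (-0.94 ± 0.051, adjusted p = 1.5e-06), Trim30d 1.94-fold (-0.96 ± 0.1, adjusted p = 7.63e-05) and Trim12c 1.43-fold (-0.52 ± 0.061, adjusted p = 0.000128). Trim34b was at least 1.91-fold lower (adjusted p = 0.000792). Trim34a was not called (0.01 ± 0.1, adjusted p = 0.946), and Trim30c was below background in both groups. With normexp the falls were smaller and still called for Trim30d (-0.49), Trim12c (-0.23) and Trim34b (-0.37). Among the innate signalling genes, Trim21 fell by 0.41, Trim14 and Trim68 by 0.32 each, and Trim41 by 0.15, the last with a call that ended on leaving out NS replicate 1, NS replicate 3 or HS replicate 3 (-0.14 to -0.13). The Trim14 call ended with the mean of its probes (-0.25, adjusted p = 0.112) and with its second probe (-0.18, adjusted p = 0.512). Trim16 fell by 0.54 and Trim35, a ligase whose second probe was not called, by 0.36. Trim45 fell by 0.21, and this call ended without any of the NS arrays or without HS replicate 1 or 3 (-0.23 to -0.19, adjusted p 0.0556 to 0.101).

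Of the 7 genes that rose with added NaCl without LPS, none rose by more than Trim37, which rose 1.29-fold (0.36 ± 0.043, adjusted p = 0.000141), from 168 to 174 in NS to 214 to 226 in HS. Trim28 rose by 0.26 ± 0.041, and Trim8, a regulator of cytokine signalling through Socs1, by 0.25 ± 0.046, from 1170 to 1180 in NS to 1360 to 1450 in HS. For these 3 genes every HS array was above every NS array. Trim39 rose by 0.22, Trim44 by 0.21 and Trim27 by 0.19. Trim56, a ligase of the STING pathway, rose by 0.18, a call that ended without any of the NS arrays or without HS replicate 1 or 3 (0.17 to 0.19, adjusted p 0.0544 to 0.0839).

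With LPS present, added NaCl raised 10 and lowered 19 of the 42 genes, beside 26.2% of all genes called higher, 31.4% called lower and 57.5% in either direction (69.0% of the 42). The median was -0.16, beside -0.043 over all genes. Trim7 was at 7.78 to 8.75 in NS+LPS and 22.9 to 25.5 in HS+LPS, and rose 2.89-fold (1.53 ± 0.078, adjusted p = 3.19e-07), and its second probe rose by 1.32. With normexp the rise was 0.9 and still called. Trim63 was also called higher (adjusted p = 1.52e-05), but was below background in both groups, so no fold is given. Trim8 rose 1.39-fold (0.48 ± 0.046, adjusted p = 1.68e-05), from 809, 820 and 892 to 1200, 1140 and 1160. Trim3, an NHL repeat ligase, rose by 0.35, Trim11 by 0.3, Trim25 by 0.24, and Trim56 by 0.22. Trim25 and Trim56 each had a second probe that turned direction (-0.09 and -0.02). Trim23 rose by 0.36, a call that ended without HS+LPS replicate 1 or 2 or the first NS+LPS array (0.29 to 0.34), Trim32 by 0.22, ended without HS+LPS replicate 1 (0.18), and Trim28 by 0.11.

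Of the cluster genes, 5 of 6 fell with added NaCl in the presence of LPS, beside 31.4% of all genes called lower, and no cluster gene rose. Trim30c fell 3.81-fold, from 58.3 to 63.2 to 14.9 to 17.4 (-1.93 ± 0.4, adjusted p = 0.00226). Trim30d fell 1.48-fold (-0.56 ± 0.1, adjusted p = 0.00111), Trim12c 1.46-fold (-0.54 ± 0.061, adjusted p = 4.45e-05) and Trim30a 1.43-fold (-0.52 ± 0.051, adjusted p = 2e-05). Trim34a fell by 0.32, a call that ended without HS+LPS replicate 1 or the NS+LPS arrays 2 or 3 (-0.31 to -0.26). Trim34b was -0.17 (adjusted p = 0.497). Of the other Trim12c probes, 1 missed the threshold (-0.24, adjusted p = 0.0602), and with normexp Trim30c was at -1.23 and still called. Trim21 fell 1.51-fold (-0.59 ± 0.08, adjusted p = 0.000156), from 144 to 147 to 95.7 to 96.5, and Trim59 by 0.32.

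Trim47 again fell, by 1.78-fold (-0.83 ± 0.11, adjusted p = 0.000127). Trim36 was at least 2.11-fold lower (adjusted p = 9.67e-05) and Trim17 at least 1.13-fold lower (adjusted p = 0.0154). The Trim17 call ended without NS+LPS replicate 2 (-0.85, adjusted p = 0.0506), its value moved from -0.93 to -0.55 without HS+LPS replicate 1, and with normexp it turned direction (0.17). Trim65 fell by 0.78 ± 0.17 and Trim9 by 0.54 ± 0.15, and with normexp these calls ended at -0.07 and -0.04, as did that of Trim36 at -0.16. Trim2 fell by 0.47 with overlapping arrays (18.4 to 21.3 and 11.7 to 19.0). That Trim2 call ended on leaving out any NS or NS+LPS array or HS+LPS replicate 2 or 3 (-0.52 to -0.32, adjusted p 0.051 to 0.139), and with normexp Trim2 was at -0.06. The rise of Trim28 likewise ended on leaving out any array other than HS replicate 1 or 2 (0.1 to 0.12, adjusted p 0.0522 to 0.122).

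The 2 NaCl comparisons share no arrays. Of the 42 genes, 15 (35.7%) were called in both, beside 25.8% of all genes. Trim2, Trim12c, Trim14, Trim16, Trim21, Trim30a, Trim30d, Trim35, Trim36, Trim47 and Trim68 were lower in both, which is 26.2% of the 42, beside 10.5% of all genes. Trim8, Trim28 and Trim56 were higher in both, 7.14% beside 10.4%. Trim63 was called in opposite directions, with no group with LPS above background. RefSeq promoters were matched to 7 of the 11 genes lower in both, of which 5 held the ISRE core. These 5 were Trim2, Trim12c, Trim21, Trim30a and Trim30d. Of the 3 genes higher in both, 2 were matched and 0 held it. Over all 31 matched TRIM genes 7 held the core, beside 3.44% of all promoters. Trim12c, Trim30a and Trim30d are paralogs of the same cluster, so their matches are not independent. The Trim2 call in the presence of LPS ended on leaving out any of 8 arrays. Whether the core bears on the NaCl differences was not tested. Trim14 and Trim16 each had a second probe at 0.05 and 0.03 in the presence of LPS, and the second Trim35 probe was not called in either comparison. The NaCl differences without and with LPS correlated at 0.29 across the 42 genes and 0.47 across all genes.

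**Figure D4:**
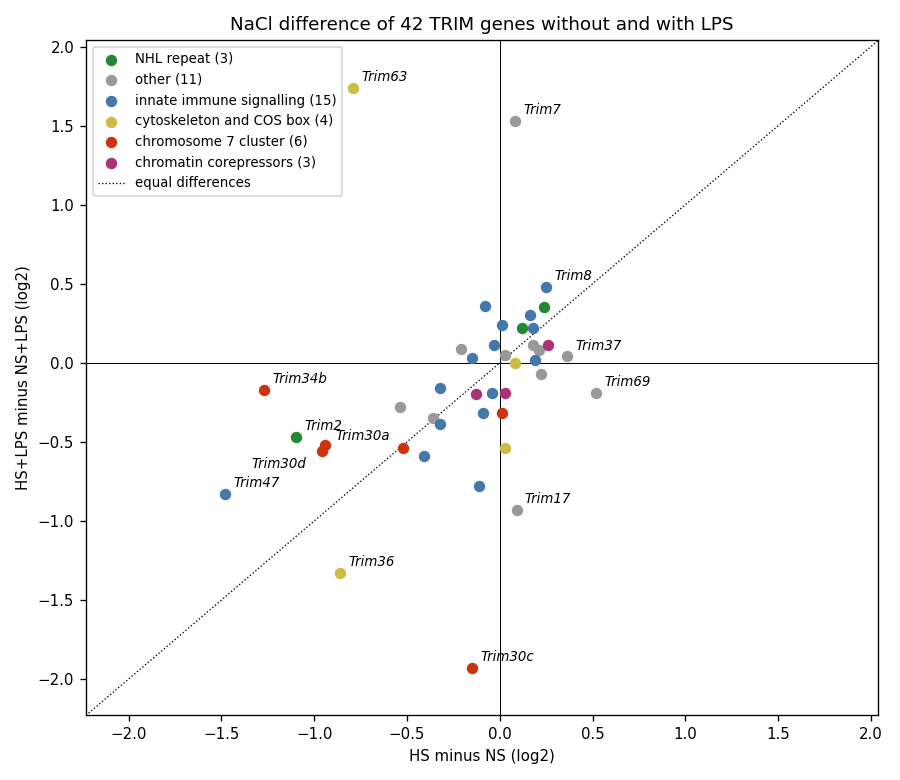
Difference with added NaCl (log2) without LPS (horizontal) and with LPS (vertical) for the 42 TRIM genes, coloured by role, with the dotted line marking equal differences. Trim47 (-1.48 and -0.83), Trim30a (-0.94 and -0.52) and Trim30d (-0.96 and -0.56) lie at the lower left, Trim7 (0.08 and 1.53) near the vertical axis. Points of Trim17, Trim30c, Trim34b, Trim36, Trim63 and Trim75 are fitted values that involve groups below background.

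**Figure D5:**
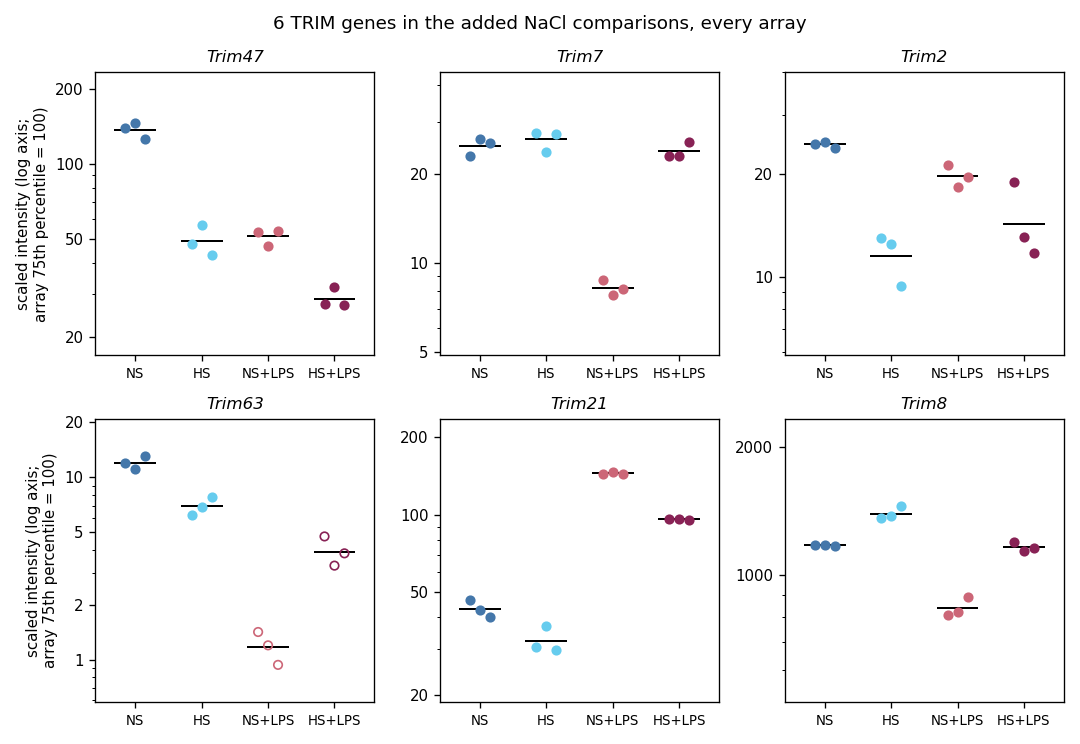
Scaled intensity (log axis, array 75th percentile set to 100) of 6 TRIM genes on each of the 12 arrays by group; lines are geometric means, and open points mark groups in which no array was well above background. Trim7 lies at 7.78 to 8.75 in NS+LPS and at 22.9 to 27.5 in the other groups, and Trim63 is below background in both groups with LPS.

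Whether the NaCl difference itself depended on LPS was tested as an interaction, the difference with LPS minus that without. The HS+LPS arrays enter it, so it cannot be told apart from their slide and scan day. The interaction was called positive for 9 and negative for 5 of the 42 genes, beside 17.4% and 18.8% of all genes and 36.2% in either direction. Trim7 had the largest such value among genes above background in all groups, at 1.46 ± 0.11 (adjusted p = 1.64e-05), and with normexp 0.81. Its second probe gave the same direction. Trim47 gave 0.65 ± 0.15 (adjusted p = 0.00878), a smaller fall with added NaCl in the presence of LPS. Trim30a gave 0.43 ± 0.072 (adjusted p = 0.0016), and with normexp 0.19 (adjusted p = 0.0639). Its near neighbour Trim30d, at 0.39 ± 0.15, did not pass (adjusted p = 0.0586), and Trim12c was at -0.03 (adjusted p = 0.831). Trim37 gave -0.32 ± 0.061 (adjusted p = 0.00293), Trim24 -0.22 ± 0.048 (adjusted p = 0.00627) and Trim59 -0.23 ± 0.055 (adjusted p = 0.00858). The second Trim24 probe turned direction (0.08). Values for Trim63 (2.53), Trim30c (-1.77) and Trim34b (1.11) involve groups below background and show no dependence on LPS by themselves. The split of called genes over the whole array was 48.0% positive, and 58.2% with quantile and 61.2% with cyclic loess normalization.

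Of the 14 TRIM genes with more than 1 passing probe, Trim39 and Trim45 had probes called in opposite directions in HS+LPS against HS. Trim39, an inhibitor of the anaphase-promoting complex, fell by 0.35 by its brightest probe and rose by 0.33 by its other. Trim45 rose by 0.34 by its brightest probe, while its other probe fell by 2.03, from a geometric mean of 11.9 in HS to 2.93 in HS+LPS. Their directions in the counts above are those of the brightest probe. The second Trim56 probe rose with LPS by 0.61 without and 0.33 with added NaCl, where the brightest gave 0.08 and 0.12 and was not called.

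The other 25 TRIM genes on the array did not meet the filter in any group. For 18 of them no probe was well above background on any array, and for 7 (Trim6, Trim30b, Trim43b, Trim50, Trim55, Trim61 and Trim62) a probe was so on at least 1 array. Trim5, Trim12a, Trim30b and Trim30e-ps1 of the chromosome 7 cluster are among the 25, so the statements on the cluster cover 6 measured genes.

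Genes of related pathways were read from the same arrays. Among TRIM proteins that carry another name, 6 of 11 were measured. With LPS, 2 rose and 0 fell without added NaCl, and 3 rose and 0 fell with it (medians 0.5 and 0.85). Added NaCl alone gave no call (median -0.2). With added NaCl in the presence of LPS, 0 rose and 1, Pml, fell, while the median was 0.28. Pml, the organizer of nuclear bodies, was at 357 to 386 in NS and 354 to 378 in HS, and at 1510 to 1810 in NS+LPS and 1230 to 1340 in HS+LPS. It rose by 2.13 ± 0.069 and 1.83 ± 0.069 with LPS and fell by 0.32 with added NaCl in the presence of LPS. Of 15 interferon signalling genes, 12 rose and 2 fell with LPS without added NaCl, and 11 rose and 3 fell with it (medians 0.98 and 0.65), beside 28.6% and 30.5% of all genes called higher and 35.1% and 41.8% called lower. With added NaCl, 9 fell and 1 rose without LPS, and 9 fell and 3 rose with LPS (medians -0.27 and -0.25), beside 18.8% and 31.4% of all genes called lower and 18.2% and 26.2% called higher. These shares of all genes apply to the other lists here as well. Irf9, the DNA-binding subunit of ISGF3, was at 722 to 787 in NS and 538 to 566 in HS and fell by 0.45 (adjusted p = 9.06e-05), and the receptor chain Ifnar1 fell by 0.73 (adjusted p = 6.31e-06). In the presence of LPS, Socs1 fell by 0.69 and Irf1 by 0.55. The mRNA of Irf7, a transcription factor of the interferon response, was instead at 4550 to 4820 in NS+LPS and 5730 to 6310 in HS+LPS. Its interaction was 0.71 (adjusted p = 0.00353). Ifnb1, which encodes interferon-beta, was at 83.6 to 105 in NS+LPS and 127 to 133 in HS+LPS.

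Of 11 measured genes of RNA and DNA sensing, 9 rose and 1 fell with LPS without added NaCl and 7 rose and 2 fell with it (medians 0.93 and 1.21), and 6 fell and 2 rose with added NaCl alone (median -0.2). With added NaCl in the presence of LPS, 6 fell and 4 rose (median -0.24), among them Ikbke, which fell by 0.82, and Tbk1, which rose by 0.69. Ddx58, which encodes RIG-I, the target of Trim25, rose by 3.73 with LPS without added NaCl, and Ifih1 (MDA5), the target of Trim65, by 4.08. Zbp1, a nucleic acid sensor, fell by 1.13 with added NaCl without LPS. Of 13 ubiquitin and ISG15 enzymes, 10 rose and 0 fell with LPS without added NaCl, 10 rose and 2 fell with it, 1 rose and 3 fell with added NaCl alone, and 2 rose and 5 fell with added NaCl in the presence of LPS. Their medians were 0.48, 0.51, 0.01 and -0.14 in that order. Ube2l6, the ISG15 conjugating enzyme, rose by 3.03 with LPS without added NaCl and fell by 0.49 with added NaCl alone. With added NaCl in the presence of LPS, Ube2l6 fell by 0.37, while Uba7 of the same list rose by 0.57. Of 16 TLR and NF-kB adaptors, 7 rose and 5 fell with LPS without added NaCl, 8 rose and 5 fell with it, 3 rose and 1 fell with added NaCl alone, and 7 rose and 3 fell with added NaCl in the presence of LPS, with medians of 0.08, 0.15, 0.04 and 0.06. Myd88, the adaptor shared by most Toll-like receptors, rose by 0.45 with added NaCl alone.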

How the data were processed

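RNA of RAW264.7 cells was measured on 12 Agilent 1-colour arrays of 62976 spots each. Per the file headers, the scanner intensity is background-subtracted and detrended, made by the authors with Feature Extraction 10.7.3.1, and probe coordinates are on mm9. Spot flags (outlier, saturated, well above background) take 0 or 1 per the file headers, and 0 spots were saturated. In the deposited value table, intensity is linear with a median of 28.8 on every array, and how it was scaled is not given in the sources used here. Groups came from the sample titles.

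Outlier spots and control spots were left out, spots of a probe were averaged (10 probes lost), and log2 of the processed signal was taken relative to each array's 75th percentile over 59305 spots. Of 33248 probes with a gene name, 18845 were well above background on all 3 arrays of a group, giving 13859 genes by their brightest probe. In limma (version 3.58.1, R 4.3.3) the 4 group means of the 12 arrays were fitted together, leaving 8 residual degrees of freedom. Tests were 2-sided, with Benjamini-Hochberg adjustment over all 13859 genes of a comparison. On simulated data with 200 of 13859 genes changed, changes of 1 were recovered for 87% (HS against NS) to 94% (HS+LPS against NS+LPS), changes of 0.5 for 67% (NS+LPS against NS) to 72% (HS against NS) and, in the interaction, for 87% and 52%, with 8 to 12 false calls. The comparisons here called 36.2% to 72.3% of all genes, far more than were changed in the simulation. Its recovery and its number of false calls therefore do not carry over to them. Precision is limited by the 3 arrays per group.

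The TRIM genes and the other gene lists were chosen with earlier results of these data known. Full values are given for the up to 6 largest called differences per comparison, the up to 3 largest bounds and the up to 6 smallest interaction p-values. Other members are summarised, or named with a value. Each probe on its own was an alternative chosen after seeing the data. The other alternatives were normexp background correction (offset 50), quantile and cyclic loess normalization, the deposited table, no filter, a filter on signal in all 12 arrays, probe means in place of the brightest probe, a variance trend with intensity, only the groups compared, array weights, replicate number and slide as blocks, the shared slide alone and leaving out each array. Tables were read with data.table (version 1.17.8), blocks fitted with statmod 1.5.0, and figures drawn with matplotlib 3.10.9 in Python 3.11.15.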

Additional observations from a re-analysis of the deposited data

Results flagged for a closer look

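The interaction test, of whether the difference with added NaCl depended on LPS, called 14 of the 42 TRIM genes (adjusted p under 0.05). That is 33.3% of the 42, beside 36.2% of all genes, so the count does not set the TRIM genes apart. The values are log2 differences with LPS minus those without. They were 1.46 for Trim7, 0.65 for Trim47, 0.43 for Trim30a, 0.3 for Trim45, 0.23 for Trim8, 0.23 for Trim25 and 0.18 for Trim41. They were -0.22 for Trim24, -0.23 for Trim59, -0.29 for Trim39 and -0.32 for Trim37. Trim63 (2.53), Trim34b (1.11) and Trim30c (-1.77) also passed, with groups in which no array was well above background, so these values rest on signal under background. With normexp Trim63 was 0.94 and Trim34b 0.21, no longer called (adjusted p = 0.16). In each case the HS+LPS arrays enter, and they cannot be told apart from their slide and scan day. Leaving out an array ended the interaction call of Trim30c (8 of 12 arrays, adjusted p 0.0517 to 0.0772), Trim41 (9 arrays, 0.0507 to 0.0836), Trim45 (8 arrays, 0.0525 to 0.0684) and Trim8 (3 arrays, 0.05 to 0.052). The Trim25 call ended with no filter (adjusted p = 0.0539), with the mean of its probes (0.14, adjusted p = 0.0844) and with its second probe (0.05, adjusted p = 0.648). That of Trim30a ended with normexp (0.19, adjusted p = 0.0639). That of Trim39 ended with cyclic loess (-0.21) and the mean of probes (-0.14). No filter also ended the calls of Trim8, Trim41 and Trim45.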

How the results depend on the processing

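The 132 called member results gave 3285 recomputed values, of which 3122 kept direction and call, 148 kept the direction and lost the call, and 15 changed sign. Of those kept, 30 moved by over 1.5 times with normexp, all toward 0 other than Trim14 in HS+LPS against NS+LPS, and 4 to 5 with each of the other normalizations, the deposited table and probe means. Leaving out an array ended 14 of the 132 calls. The counts of TRIM genes called with a pair of groups stayed within 1.5 times of the values given, whereas the interaction counts did not. The 9 positive calls became 14 with quantile or cyclic loess normalization or the deposited table and 5 with no filter, and ranged from 6 to 10 on leaving out an array. The 5 negative calls became 8 with normexp, 3 with cyclic loess, 3 with the mean of probes and 10 with array weights, and ranged from 4 to 7 on leaving out an array. The cause was not tested.

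Values that changed sign were, with another probe of the gene in HS+LPS against NS+LPS, 0.05 for Trim14, 0.03 for Trim16, 0.04 for Trim24, -0.09 for Trim25 and -0.02 for Trim56. In HS+LPS against HS they were 0.33 for Trim39 and -2.03 for Trim45, in HS against NS 0.14 for Trim45, and in the interaction 0.08 for Trim24 and 0.01 for Trim39. With the mean of probes Trim45 was -0.84 in HS+LPS against HS. With normexp the dim genes Trim17 (0.17 against NS+LPS and 0.13 against HS), Trim63 (0.15 against HS) and Trim75 (0.08 against HS) turned.

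Same-numbered arrays did not deviate together (correlations of -0.201 to 0.124, median -0.001), and differently numbered ones spanned -0.153 to 0.229. No shared effect of replicate number was seen, which cannot show whether the samples were paired. With the replicate block, 128 of 132 calls stayed and 4 ended, those of Trim28 in HS+LPS against NS+LPS (0.11), Trim45 in HS against NS (-0.21), and Trim41 (0.18) and Trim45 (0.3) in the interaction. A fixed slide term could be fitted only for HS against NS and NS+LPS against NS, where 53 of 54 calls stayed. With slide as a random block all 132 calls stayed, which does not separate HS+LPS from its slide.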
